A study of Mus musculus with 50 samples.

Results

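Lymph nodes that drain the small intestine were compared with lymph nodes that drain the colon, in mice on a vitamin A sufficient diet. The members were all libraries that GEO's labels place on that diet and in 1 of the 4 gut-draining nodes, which makes 20 of the 50 libraries of the series. The small intestinal side held 15 libraries, 5 each from duodenal, jejunal and ileal nodes, and the colonic side held 5. Every mouse in the series is labelled C57B6, an inbred strain with no genetic change named in any group, and was taken at postnatal day 56. Dams of the sufficient mice ate the study's control diet from 3 weeks before breeding was set up, to which vitamin A was added back (20 IU/g). Within each sufficient node, libraries 1 and 2 came from female mice and libraries 3, 4 and 5 from male mice. The same contrast on the deficient diet, whose dams received no added vitamin A over the same period, used 15 small intestinal and 5 colonic libraries, all from female mice. The 5 sufficient inguinal libraries, from a node that drains skin, served as a reference level outside the gut. The series addresses how vitamin A bears on regional differences among gut-draining nodes, and the contrast described here asks what sets the small intestinal nodes apart from the colonic nodes when vitamin A is supplied. No label ties a node to its mouse or states whether nodes were pooled, and p-values here express only the spread from library to library.

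A lymph node filters the lymph of 1 territory. Lymph enters through the subcapsular sinus, passes sinus and medullary macrophages that take up particles with scavenger receptors and lectins, and brings migratory dendritic cells that carry antigen to T cells. Lymphatic endothelium lines these sinuses, fibroblastic reticular cells build the scaffold of the T cell zone and the follicles, and lymphocytes enter from blood through high endothelial venules. In the gut, dendritic cells and stromal cells of the draining nodes convert retinal, a derivative of vitamin A, into retinoic acid, a step for which they use aldehyde dehydrogenases such as Aldh1a2.

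The 20 libraries held 5335369 to 8487925 estimated counts each (median 7004400) and 24479 to 26833 genes with a count. Lymph node genes were present in all of them: Ccl21a, a chemokine of lymph node stroma and lymphatic endothelium, lay at 1023 to 2373 CPM in small intestinal and 1103 to 1936 CPM in colonic libraries, where CPM stands for the count scaled to a common library size after TMM normalisation, although only 19.4% of the 31-base words of its transcripts belong to no other gene. Madcam1, the addressin of mucosal vessels and reticular cells, lay at 33.4 to 89.7 and 55.1 to 78.6 CPM and averaged 8.25 ± 1.46 CPM (SD, n = 5) in inguinal nodes. Pancreatic transcripts set some libraries apart. Duodenal library 5 held 25.4% of its counts in the list of pancreatic genes and duodenal library 2 held 3.81%, whereas jejunal library 3 held 1.19% and every other of the 20 libraries at most 0.89%. The libraries numbered 5 of jejunal, ileal and colonic nodes held 0.602%, 0.417% and 0.362%. In bulk tissue, fewer cells of a type and less RNA per cell cannot be told apart, and this holds for every gene below.

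Between small intestinal and colonic nodes, 707 of 18077 genes tested passed an adjusted p of 0.05 in edgeR's quasi-likelihood test (3.91%), 488 of them higher (2.70%) and 219 lower (1.21%) in small intestinal nodes. Each small intestinal node was also set against the colonic nodes on its own, and the 3 comparisons share the same 5 colonic libraries. Duodenal nodes gave 306 higher and 228 lower genes (2.95% of all tested, of which 1.69% higher and 1.26% lower), jejunal nodes 422 and 169 (3.27%, of which 2.33% higher and 0.935% lower), and ileal nodes 740 and 188 (5.13%, of which 4.09% higher and 1.04% lower). In all 3 nodes with 1 sign, 93 genes passed (0.514%), of which 73 were higher (0.404%) and 20 lower (0.111%), and all 93 were also among the 707. The rest of the 707 comprised 345 genes that passed in exactly 2 nodes, 239 in exactly 1, and 30 in none. A test among duodenal, jejunal and ileal nodes, which does not use the colonic libraries, called 1381 genes (7.64%), and 261 of the 707 were among them. Of the 93 genes, 14 of the 73 higher ones and 4 of the 20 lower ones varied along the small intestine by that test.

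The number of called genes depended on which libraries were included. Leaving out a number removes every sufficient library of that number, so these fits also hold fewer libraries. Without the libraries numbered 3 the count of 707 became 395, and without the libraries numbered 4 it became 465. Without colonic library 3 alone it became 456, and without colonic library 5 alone it was 706, of which 547 were among the 707. The count of 93 became 43 without number 3, 49 without number 4, 53 without number 1 and 59 without colonic library 4. Without duodenal libraries 2 and 5, those with the most pancreatic counts, 653 genes passed overall and 64 in all 3 nodes, and the duodenal count became 257. Without number 1, 2 or 4 the duodenal count was 331, 301 or 354. The jejunal count was 287, 386, 357 and 392 without number 3, number 4, colonic library 3 and jejunal library 5. The ileal count was 532 without number 3 and 536 without number 4, and the count among the small intestinal nodes was 887 without number 2, 726 without number 4 and 884 without duodenal libraries 2 and 5.

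Across the 73 higher genes the log2 fold change of small intestinal against colonic nodes had a median of 0.93 and a range of 0.26 to 2.71, against a median of -0.02 over all genes tested. Across the 20 lower genes the median was -1.88 and the range -5.12 to -0.55. The threshold itself fixes the sign of these values. All 15 small intestinal libraries lay above all 5 colonic libraries for 33 of the 73 higher genes, as they did for 52 of all genes tested (0.288%), and below them for 13 of the 20 lower genes, as for 20 of all genes tested (0.111%). Among the 73 higher genes the largest single-node fold change was jejunal for 32, ileal for 28 and duodenal for 13. Among the 20 lower genes the duodenal value was the lowest for 13, and the ileal value was the nearest to colonic for 11.

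Gbp2b, a guanylate-binding protein and thus a GTPase of the interferon response that acts against intracellular pathogens, had the largest log2 fold change of the 73 genes. Its 15 small intestinal libraries ranged from 43 to 132 CPM with a median of 78.6, and the 5 colonic libraries lay at 10.5, 19, 5.75, 9.05 and 13.8 CPM. The groups did not overlap, with a log2 fold change of 2.71 ± 0.25, adjusted p = 1.7e-10. Its mean was 53.7 ± 7.9 CPM in duodenal, 90.6 ± 26.5 in jejunal and 87.3 ± 7.63 in ileal nodes (SD, n = 5), and in inguinal nodes it was 8.37 ± 0.796 CPM, near the colonic level. Gbp2b lies at chr3:142594847-142619179 (plus strand, GRCm38, protein-coding). Its neighbour Gbp2, at chr3:142620602-142638008, lay at 71.3 to 88.3 CPM in small intestinal and 56.6 to 78 CPM in colonic libraries (log2 fold change 0.23 ± 0.11, adjusted p = 0.32). The promoter windows of the 2 neighbours (250 bases before to 50 after the start, RefSeq, GRCm38.p6) are shown because these genes differ in the contrast and yet both hold 1 match to the interferon response motif (GAAA, any 2 bases, then GAAA), which reads TTTCACTTTC on the strand shown and is set in capitals.
Gbp2b, chr3:142594597-142594896, plus strand: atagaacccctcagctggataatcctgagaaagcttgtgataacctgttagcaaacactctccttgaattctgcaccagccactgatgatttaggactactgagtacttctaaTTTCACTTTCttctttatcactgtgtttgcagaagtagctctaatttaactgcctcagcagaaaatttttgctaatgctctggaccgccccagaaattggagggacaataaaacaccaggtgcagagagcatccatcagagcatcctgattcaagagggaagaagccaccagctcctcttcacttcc
Gbp2, chr3:142620413-142620712, plus strand: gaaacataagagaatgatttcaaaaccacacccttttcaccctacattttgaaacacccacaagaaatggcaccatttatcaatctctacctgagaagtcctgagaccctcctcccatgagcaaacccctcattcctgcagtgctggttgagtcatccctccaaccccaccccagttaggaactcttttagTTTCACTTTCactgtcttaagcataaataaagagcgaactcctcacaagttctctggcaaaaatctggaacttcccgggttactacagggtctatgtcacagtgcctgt
The match ends 127 bases before the start of Gbp2b and 49 bases before the start of Gbp2. Of all 32851 promoter windows 3.44% hold this motif on either strand, and so do 2 of the 59 windows that were found for 52 of the 73 higher genes.

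The remaining members of the guanylate-binding protein list, which also holds the related immunity GTPases, moved less. Of its 17 tested genes 5 were higher and 0 lower, and 17 of 17 had a log2 fold change above 0, with a median of 0.31. Over all genes tested, 8272 of 18077 were above 0. Beside Gbp2b the called genes included the immunity GTPase Iigp1 (0.85 ± 0.21, adjusted p = 0.0092), Gbp7 (0.63 ± 0.16, adjusted p = 0.013) and Gbp8 (0.35 ± 0.08, adjusted p = 0.004). Iigp1 lost its call without number 3 (adjusted p = 0.079), number 4 (0.0728) or colonic library 3 (0.0687), and Gbp7 lost it without number 3 (0.075), number 5 (0.0998) or colonic library 5 (0.0635). Gbp8 lost it without number 3 (adjusted p = 0.0578). Of the 31-base words 68.9% for Gbp8 and 85.3% for Gbp7 are found in no other gene, so their reads are in part uncertain. Among 20 tested interferon-stimulated genes none passed in edgeR, limma-voom or DESeq2 and 2 had an unadjusted p under 0.05. All 20 had a log2 fold change above 0, against 8272 of all 18077 genes tested, with a median of 0.35. Their summed level was 1217.8 and 1341.6 CPM in ileal libraries 1 and 2. It was 654 to 891 CPM in the other small intestinal, 586 to 725 CPM in colonic and 961 to 1957 CPM in inguinal libraries. The guanylate-binding protein list summed to 951 to 1392 CPM in small intestinal, 766 to 1009 CPM in colonic and 1278 to 1550 CPM in inguinal libraries. In the same contrast on the deficient diet the median log2 fold change was -0.69 for the interferon-stimulated and -0.03 for the guanylate-binding protein list. Whether the interferon-stimulated genes moved independently of each other was not tested.

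Macrophage genes formed the list with the highest share of called members. Of 18 tested genes of sinus and medullary macrophages 11 were higher and 2 lower in small intestinal nodes, and their median log2 fold change was 0.58. Adgre1 (chr17:57358691-57483527), which encodes the macrophage surface receptor F4/80, ranged from 36.4 to 103 CPM with a median of 74.4 in small intestinal libraries and lay at 19.1, 20.9, 12.5, 12.6 and 19.7 CPM in colonic libraries. The groups did not overlap (log2 fold change 1.99 ± 0.17, adjusted p = 2.2e-11), and the duodenal mean of 43.7 ± 8.91 CPM was lower than the jejunal mean of 83 ± 12.9 and the ileal mean of 83 ± 8.04 (adjusted p among the 3 nodes = 0.00045). Mrc1, the mannose receptor, ranged from 51.1 to 128 CPM with a median of 99.1 against 54.2, 42, 29.2, 29.6 and 53.6 CPM in colonic libraries. Its duodenal library 3, at 51.1 CPM, lay among the colonic values (log2 fold change 1.21 ± 0.15, adjusted p = 1.9e-07). Msr1, the class A scavenger receptor, ranged from 33.7 to 76.5 CPM with a median of 47.3 against 30.6, 20.1, 14.1, 10.9 and 16.2 CPM, without overlap (1.51 ± 0.20, adjusted p = 1.9e-06). The complement component C1qa (0.72 ± 0.11, adjusted p = 1.8e-05) and the iron exporter Slc40a1 (0.89 ± 0.19, adjusted p = 0.0031) were higher in all 3 nodes too.

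The 2 macrophage genes that were lower were Timd4, a receptor for phosphatidylserine on dying cells, and Folr2, a folate receptor. Timd4 ranged from 35.1 to 74.8 CPM with a median of 50.3 in small intestinal libraries and lay at 121, 107, 136, 146 and 111 CPM in colonic libraries (log2 fold change -1.23 ± 0.10, adjusted p = 1.1e-11). The groups did not overlap, and inguinal nodes averaged 173 ± 20.5 CPM. Folr2 averaged 5.96 ± 0.84 CPM in duodenal and 8.15 ± 1.8 CPM in jejunal nodes, against 18.9 ± 5.81 in ileal and 26.8 ± 3.1 in colonic nodes. It was called in the mean contrast (-1.47 ± 0.18, adjusted p = 1.7e-07) and not in ileal nodes alone (adjusted p = 0.23), and only 43.1% of the 31-base words of its transcripts are its own. Macrophage genes therefore moved in both directions in the same libraries.

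Cd5l, which encodes a secreted macrophage protein, shows what the mean of 3 nodes can hide. It averaged 18.1 ± 7.98 CPM in duodenal, 24.9 ± 4.87 in jejunal, 177 ± 53.4 in ileal and 39.9 ± 24.8 in colonic nodes. The mean contrast did not pass (0.16 ± 0.26, adjusted p = 0.87), whereas ileal nodes alone were higher (2.20 ± 0.32, adjusted p = 5.1e-06). Ednrb, the endothelin receptor B, lay at 9.92 ± 1.24 CPM in duodenal, 60.8 ± 16.9 in ileal and 20.7 ± 2.49 in colonic nodes. It was lower than colonic in duodenal nodes (-1.06 ± 0.24, adjusted p = 0.0058) and higher in ileal nodes (1.56 ± 0.22, adjusted p = 3.7e-06), and its mean contrast was 0.17 ± 0.19.

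**Figure D1:**
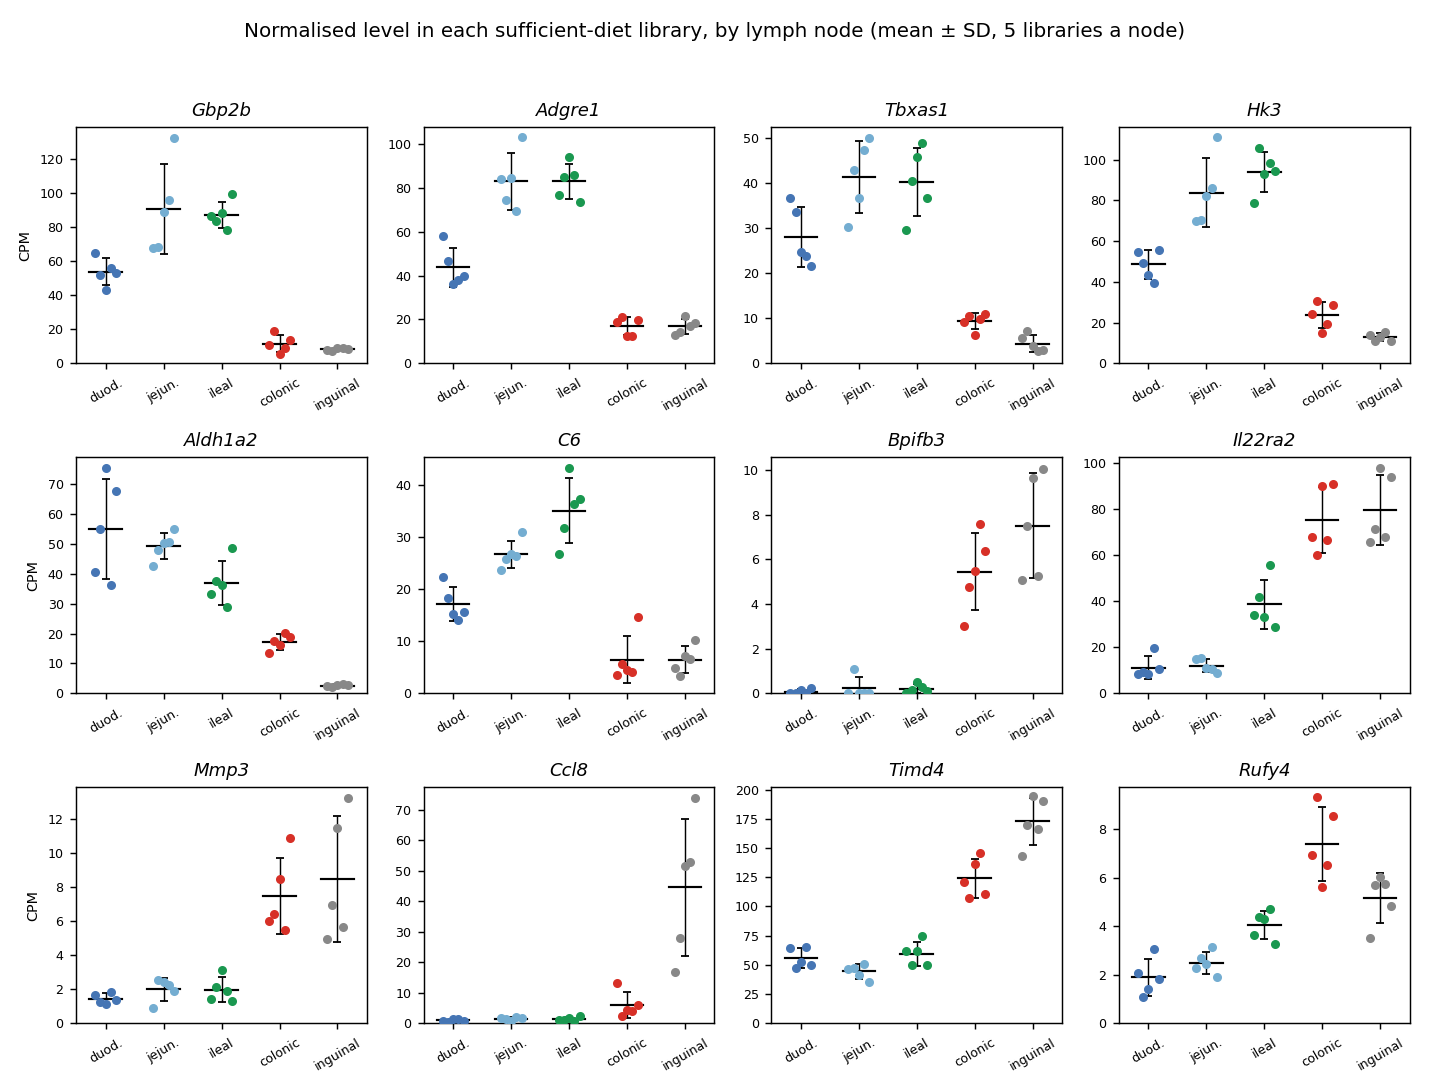
CPM (y axis, from 0) of 12 genes in each sufficient-diet library, by lymph node (x axis, 5 libraries a node), with points for libraries and black lines for the mean ± SD. Gbp2b and Adgre1 are above every colonic library in all 15 small intestinal libraries, Il22ra2 and Timd4 are below, and ileal nodes are intermediate for Il22ra2.

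Several other leading genes of the 73 are known from myeloid cells. Hk3, the hexokinase of myeloid cells, ranged from 39.6 to 111 CPM with a median of 78.9 against 24.4, 30.4, 14.9, 19.4 and 28.7 CPM in colonic libraries, without overlap (1.63 ± 0.16, adjusted p = 1.5e-09). Tbxas1, thromboxane A synthase, ranged from 21.6 to 49.98 CPM with a median of 36.6 against 9.26, 10.6, 6.3, 9.85 and 10.9 CPM, also without overlap (1.95 ± 0.23, adjusted p = 9e-08). For both genes the lowest small intestinal value was a duodenal one. Cdkn2a, which encodes 2 inhibitors of the cell cycle, ranged from 4.09 to 11.1 CPM with a median of 5.8 against 1.5, 1.86, 2.47, 2.53 and 2.02 CPM (1.70 ± 0.22, adjusted p = 1.2e-06), again without overlap. The genes in the next 2 sentences were chosen after their values were seen. Among the 73 genes, enzymes of prostanoid metabolism included the cyclooxygenase Ptgs1 (0.84 ± 0.14), the phospholipase Pla2g4a (0.70 ± 0.15) and the prostaglandin dehydrogenase Hpgd (0.63 ± 0.11), and lysosomal genes included Ctsl (0.64 ± 0.10), Asah1 (0.52 ± 0.10) and Scarb2 (0.28 ± 0.05). The inflammasome genes Casp1 (0.50 ± 0.10), Nlrp1b (0.94 ± 0.15) and Nlrp1a (1.56 ± 0.36) were among them as well.

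Nlrp1a and Nlrp1b lie next to each other on the minus strand of chromosome 11 and encode sensors that activate caspase 1. Nlrp1b ranged from 5.86 to 13.6 CPM with a median of 9.41 in small intestinal libraries and lay at 5.72, 5.38, 5.07, 4.53 and 3.11 CPM in colonic libraries, and Nlrp1a ranged from 0.884 to 2.49 CPM with a median of 1.83 against 1.09, 0.621, 0.137, 0.932 and 0.155 CPM. Both were called in all 3 nodes, Nlrp1b without overlap of the groups. Their promoter windows are shown because the 2 genes moved together and their windows share the motif AGAGGAAGT, a binding motif of the myeloid factor PU.1, set in capitals.
Nlrp1a, chr11:71144655-71144954, minus strand: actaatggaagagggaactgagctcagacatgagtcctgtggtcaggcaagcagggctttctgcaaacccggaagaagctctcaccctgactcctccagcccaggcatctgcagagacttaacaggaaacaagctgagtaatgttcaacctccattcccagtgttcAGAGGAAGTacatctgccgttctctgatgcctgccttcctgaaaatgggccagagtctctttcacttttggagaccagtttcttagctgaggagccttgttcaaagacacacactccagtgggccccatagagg
Nlrp1b, chr11:71230684-71230983, minus strand: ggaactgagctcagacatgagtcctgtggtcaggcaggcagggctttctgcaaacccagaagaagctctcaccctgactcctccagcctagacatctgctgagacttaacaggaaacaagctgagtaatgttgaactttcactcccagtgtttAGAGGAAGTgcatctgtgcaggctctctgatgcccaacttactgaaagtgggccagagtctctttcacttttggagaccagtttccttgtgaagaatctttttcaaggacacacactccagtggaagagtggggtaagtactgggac
The match ends 75 bases before the start of Nlrp1a and 88 before that of Nlrp1b. It occurs in 1% of all windows, in 4 of the 59 windows of higher genes and in 2 of the 16 windows of lower genes. The higher ones are those of Abcg3, Ptgs1, Nlrp1a and Nlrp1b, and the lower ones those of Cd300ld4 and Cd300ld5. The windows of Nlrp1a and Nlrp1b are alike well beyond the motif, and the Cd300ld genes are of 1 family. Matches within each pair are therefore not independent, which holds for the shorter forms too. The shorter forms GAGGAAGT and AGGAAGT, which lie within it, occur in 6 and 12 of the 59 windows and in 3.2% and 9.35% of all windows. The other motifs were searched on both strands in the same way. The STAT motif TTCNNNGAA occurs in 5 of the 59 windows and in 8.3% of all windows, the nuclear receptor half-site AGGTCA in 9 and 16.3%, and its variant AGTTCA in 5 and 14%. The MAF motif TGCTGAC occurs in 2 windows and 4.67%, the E-box CACGTG in 5 and 7.15%, the composite PU.1 and IRF motif (GGAA, any 2 bases, then GAAA) in 2 and 2.72%, and the NF-kB motif (GGGA, any 4 bases, then CC) in 13 and 20.7%.

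Of 19 tested genes of lymphatic endothelium 8 were higher and 0 lower, with a median log2 fold change of 0.46. Against colonic nodes 1 was higher in duodenal, 8 in jejunal and 11 in ileal nodes, and 12 of the 19 varied among the small intestinal nodes. Prox1, the master transcription factor of lymphatic identity, averaged 27.2 ± 6.32 CPM in duodenal, 40.2 ± 7.28 in jejunal, 60.04 ± 16.5 in ileal and 22.8 ± 3.86 in colonic nodes (0.82 ± 0.14, adjusted p = 7.2e-05, adjusted p among the 3 nodes = 1.4e-05). Duodenal and colonic nodes did not differ beyond their spread for Prox1 (adjusted p = 0.53). Flt4, the receptor of vascular endothelial growth factor C, averaged 35 ± 6.68 CPM in duodenal and 36.5 ± 9.96 CPM in colonic nodes, which again did not pass (adjusted p = 0.95), and 98.9 ± 18.5 CPM in ileal nodes (1.46 ± 0.16, adjusted p = 9.3e-09). Lyve1, the hyaluronan receptor of lymphatic vessels and of some macrophages, was higher by 0.80 ± 0.12, and Kdr, a receptor of vascular endothelial growth factor A, by 0.77 ± 0.11.

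Clec4g, a C-type lectin of sinusoidal endothelium, was the lymphatic gene that passed in all 3 nodes (1.35 ± 0.22, adjusted p = 5.2e-05). It ranged from 16.6 to 51.7 CPM with a median of 26 and lay at 9.12, 20.1, 8.08, 9.19 and 9.01 CPM in colonic libraries, where library 2 was higher than the other 4 and within the small intestinal range. F8, coagulation factor VIII, which endothelium produces, ranged from 53 to 160.4 CPM with a median of 109.7 against 61.3, 53.4, 38.5, 43.7 and 37.4 CPM (1.2 ± 0.13, adjusted p = 1.9e-08). The groups overlapped because duodenal library 3, at 53 CPM, was below colonic libraries 1 and 2. Of 14 tested genes of blood capillary endothelium 4 were higher and 0 lower, Kdr among them, with Tie1 (0.50 ± 0.10, adjusted p = 0.00071) and Plvap (0.36 ± 0.09, adjusted p = 0.015). Against colonic nodes 1 was higher in duodenal and 4 in jejunal nodes, and in ileal nodes 6 were higher and 1 lower. Plvap lost its call without number 1 (adjusted p = 0.0594), 3 (0.158), 4 (0.0868) or 5 (0.0529) and without colonic library 1 (0.0596), 3 (0.112) or 4 (0.067). The tight junction protein Esam was just inside the threshold (adjusted p = 0.0496) and lost its call under 27 of the alternatives run.

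Fibroblast and matrix genes contributed single genes rather than whole lists. Of 15 tested genes of adventitial and capsular fibroblasts 2 were higher, Lum and Col14a1, and 1, Igfbp6, was lower. A log2 fold change above 0 was found for 7 of the 15 (median -0.11), and Igfbp6 lost its call under 24 of the alternatives run. Of 13 tested matrix metalloproteinases and inhibitors 2 were higher, Timp3 and Mmp25, and 1, Mmp3, was lower. Col6a6, a collagen VI chain, ranged from 4.08 to 11.9 CPM with a median of 8.58 against 2.72, 2.69, 1.64, 0.932 and 1.55 CPM in colonic libraries (2.13 ± 0.22, adjusted p = 2e-09), without overlap. Among 26 tested collagens 3 were higher and 0 lower, the others being Col14a1 (0.72 ± 0.15, adjusted p = 0.0017) and Col12a1 (0.54 ± 0.12, adjusted p = 0.0033). Postn, the matrix protein periostin, ranged from 73.9 to 181 CPM with a median of 125 against 62.3, 56.9, 39.9, 45.3 and 53.5 CPM (1.28 ± 0.17, adjusted p = 1.4e-06). Lum, the proteoglycan lumican, ranged from 36.1 to 72.3 CPM with a median of 56.6 against 29, 30.2, 17.4, 20.2 and 21 CPM (1.2 ± 0.16, adjusted p = 1.2e-06). The groups did not overlap for these 2 genes, and Lum averaged 4.56 ± 1.46 CPM in inguinal nodes. Cxcl14, a chemokine, had a large and imprecise log2 fold change (2.17 ± 0.50, adjusted p = 0.0053). It ranged from 2.21 to 10.1 CPM with a median of 5.68 against 0.545, 2.69, 1.37, 0.799 and 1.09 CPM, with overlap, and lost its call without the libraries numbered 4 (adjusted p = 0.0561).

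Soluble and secreted factors were among the leading genes as well. C6, a component of the membrane attack complex of complement, ranged from 14.1 to 43.3 CPM with a median of 26.3. Its colonic libraries lay at 3.54, 5.59, 4.52, 4.13 and 14.6 CPM, and colonic library 5 alone reached the small intestinal range (2.00 ± 0.33, adjusted p = 5.9e-05). Rspo3, a secreted activator of Wnt signalling, was at 1.3 to 7.44 CPM against 1.23, 1.66, 1.51, 1.07 and 1.24 CPM (1.45 ± 0.26, adjusted p = 0.00023), and Sfrp1, a secreted Wnt inhibitor, at 9.96 to 19.8 against 8.03, 9.73, 6.71, 4.26 and 5.28 CPM (1.15 ± 0.17, adjusted p = 1.2e-05). Glp2r, the receptor of the intestinal hormone glucagon-like peptide 2, ranged from 2.08 to 6.74 CPM with a median of 4.06 against 1.09, 1.24, 1.23, 1.46 and 0.777 CPM, without overlap (1.69 ± 0.29, adjusted p = 0.00014). Rspo3, Sfrp1 and Glp2r were chosen after their values were seen. Smim35, a small membrane protein, was higher by 1.78 ± 0.28 and did not overlap.

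Retinoid genes gave called members in each small intestinal node. Of 14 tested genes of retinoid handling 4 were higher and 0 lower, with a median log2 fold change of 0.20. In duodenal nodes alone 3 were higher and 1, the retinaldehyde dehydrogenase Aldh1a3, was lower (-0.99 ± 0.25, adjusted p = 0.015). Aldh1a2 (chr9:71215789-71296243), which oxidises retinal to retinoic acid, ranged from 29 to 75.4 CPM with a median of 48.2, and its colonic libraries lay at 13.3, 17.6, 16.3, 20.2 and 19 CPM. Every small intestinal library was above every colonic library, all of which were above the inguinal mean of 2.57 ± 0.418 CPM. Its single-node fold changes were 1.67 ± 0.27 in duodenal, 1.52 ± 0.27 in jejunal and 1.11 ± 0.27 in ileal nodes, and the 3 nodes were not told apart (adjusted p among them = 0.36). Lrat, which esterifies retinol for storage, averaged 24.3 ± 4.00 CPM in duodenal, 18.5 ± 3.14 in jejunal, 12.4 ± 1.91 in ileal and 8.67 ± 2.22 in colonic nodes, and ileal nodes alone did not pass (adjusted p = 0.3). Cyp26b1, which degrades retinoic acid, was at 3.83 to 24.2 CPM against 3.29 to 6.67 CPM and did not pass in the mean contrast (0.61 ± 0.28, adjusted p = 0.28), although jejunal nodes alone did (1.36 ± 0.33, adjusted p = 0.0098). Of 15 tested response genes 3 were higher and 0 lower, namely the transglutaminase Tgm2 (0.78 ± 0.14, adjusted p = 0.00038), the transcription factor Hic1 (0.57 ± 0.13, adjusted p = 0.0033) and the retinal reductase Dhrs3 (0.63 ± 0.14, adjusted p = 0.0024), which stands in both lists.

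**Figure D2:**
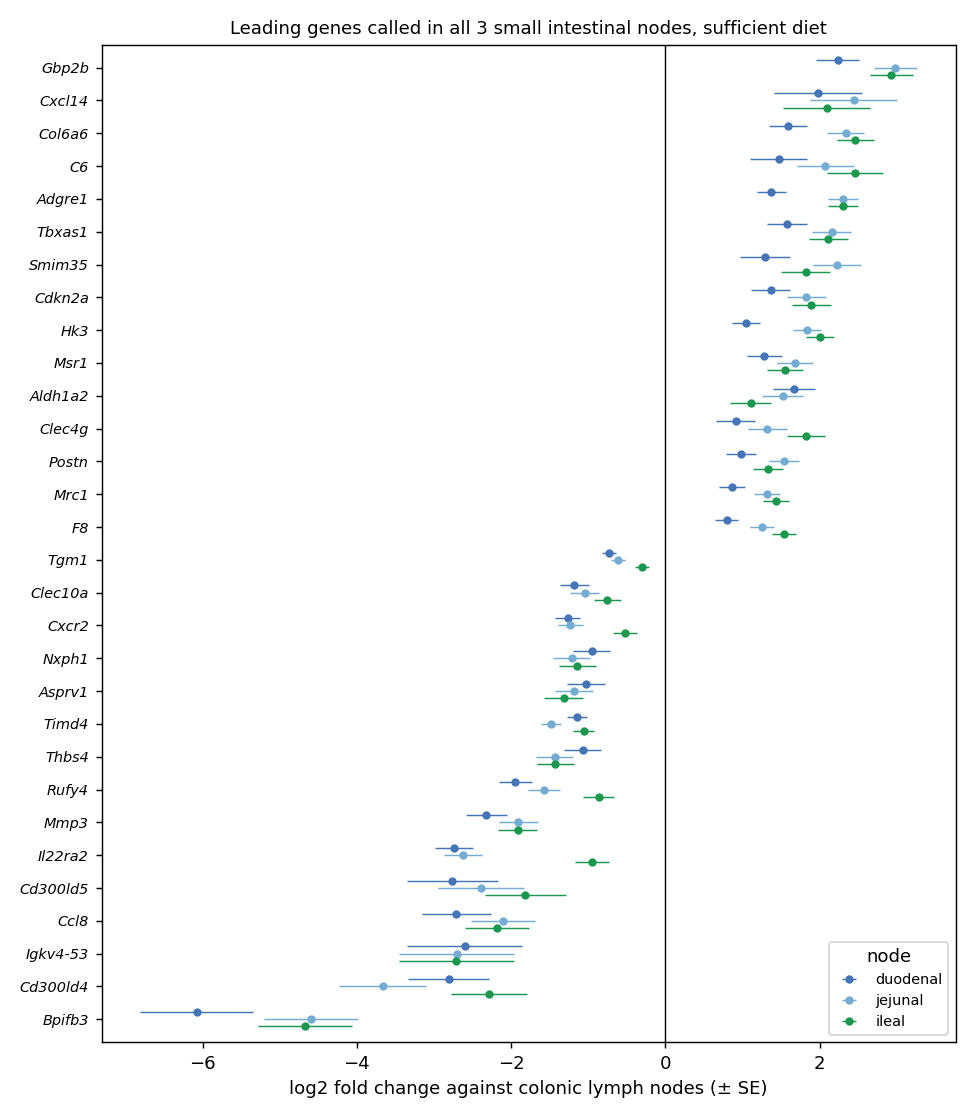
Log2 fold change against colonic nodes (x axis, points with ± SE) of the 15 higher and 15 lower leading genes called in all 3 nodes (y axis), by small intestinal node. Duodenal points lie nearest 0 for Hk3 and Adgre1, ileal points lie nearest 0 for Il22ra2 and Rufy4, and the duodenal point of Bpifb3 rests on 2 estimated counts.

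The genes that were lower in small intestinal nodes included secreted inhibitors, chemokines and proteases. Il22ra2 (chr10:19621998-19634681), the soluble receptor that binds and blocks interleukin 22, lay at 8.29, 9.19, 8.16, 19.8 and 10.4 CPM in duodenal and 14.8, 15.2, 10.7, 10.6 and 8.71 CPM in jejunal libraries. It lay at 34, 41.8, 33.2, 55.8 and 28.8 CPM in ileal and 67.8, 60.02, 89.8, 66.7 and 91.1 CPM in colonic libraries. Ileal values were thus between the others, below every colonic value and above every duodenal and jejunal value (-2.11 ± 0.17, adjusted p = 1.1e-11, adjusted p among the small intestinal nodes = 4e-07). Inguinal nodes were at 79.5 ± 15.3 CPM, near the colonic level. Mmp3, the matrix protease stromelysin 1, ranged from 0.876 to 3.14 CPM with a median of 1.85 against 5.99, 6.42, 8.49, 5.46 and 10.9 CPM in colonic libraries (-2.05 ± 0.19, adjusted p = 1.9e-10), without overlap and with no difference called among small intestinal nodes (adjusted p = 0.61).

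Bpifb3 (chr2:153918230-153932996), a member of a family of lipid-binding secreted proteins, had far more counts in colonic and inguinal than in small intestinal libraries. The 15 small intestinal libraries together held 16 estimated counts, with 8 libraries at 0, and the 5 colonic libraries held 183. The ratio of colonic to small intestinal CPM from these sums was 35.5 (95% interval 21.3 to 63.5, exact binomial, counting error only). Its fitted log2 fold change was -5.12 ± 0.44, adjusted p = 2.2e-11, which for so few counts depends on the small count that the software adds. The colonic libraries lay at 2.99, 4.76, 5.48, 7.59 and 6.37 CPM and inguinal nodes averaged 7.5 ± 2.36 CPM.

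Ccl8, a chemokine for monocytes and T cells, ranged from 0.467 to 2.32 CPM with a median of 1.26 against 13.3, 2.28, 4.38, 4.13 and 5.9 CPM in colonic libraries, where library 1 was the highest (-2.33 ± 0.31, adjusted p = 2e-06). Inguinal nodes averaged 44.6 ± 22.5 CPM, above both. Rufy4, which has been described as a regulator of autophagy in dendritic cells, ranged from 1.09 to 4.69 CPM with a median of 2.68 against 6.94, 9.31, 5.62, 6.52 and 8.55 CPM, without overlap (-1.46 ± 0.16, adjusted p = 1.2e-08). Cxcr2, the chemokine receptor of neutrophils, ranged from 10.4 to 32.5 CPM with a median of 16.4 against 35.7, 39.3, 39.4, 39.4 and 27.8 CPM (-1.01 ± 0.12, adjusted p = 2.1e-07), and Clec10a, a lectin of dendritic cells and macrophages, ranged from 12.8 to 23.8 CPM with a median of 19.5 against 27.5, 33.9, 40.5, 39.4 and 37.8 CPM (-0.99 ± 0.14, adjusted p = 5.8e-06). In the neutrophil and monocyte list, 1 of 14 tested genes, the growth factor receptor Csf3r (0.49 ± 0.14, adjusted p = 0.039), was higher and 1, Cxcr2, was lower. Csf3r lost its call under 20 of the alternatives run. For Clec10a 85.2% and for Mmp3 85.4% of the 31-base words are their own.

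Thbs4, a thrombospondin of the matrix, ranged from 2.47 to 6.31 CPM with a median of 3.32 against 7.9, 7.24, 8.35, 12.1 and 8.86 CPM (-1.31 ± 0.18, adjusted p = 3e-06) and averaged 2.68 ± 1.12 CPM in inguinal nodes, near the small intestinal level. Nxph1, a secreted ligand of neurexins, was at 1.89 to 4.62 against 5.45 to 8.49 CPM (-1.10 ± 0.19, adjusted p = 9.9e-05), and Tgm1, a transglutaminase, at 16.7 to 26.8 against 27.5 to 32.8 CPM (-0.55 ± 0.07, adjusted p = 2e-06). None of these 3 genes overlapped between the groups. Asprv1, an aspartic protease, was lower by a log2 fold change of -1.18 ± 0.19, and Gpr15lg, the ligand of the colon homing receptor Gpr15, by -1.24 ± 0.23. Gpr15 itself lay at 2.11 to 3.96 CPM against 2.72 to 3.88 CPM (-0.24 ± 0.14, adjusted p = 0.54). Cdh3, P-cadherin, completed the genes outside the immunoglobulin, Cd300 and Hox families (-1.79 ± 0.33, adjusted p = 0.0003).

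Of the 20 lower genes 3 belong to families whose reads cannot be assigned with certainty. Cd300ld4 (-2.92 ± 0.38, adjusted p = 9.4e-07) and Cd300ld5 (-2.32 ± 0.41, adjusted p = 0.00016) are paired receptors of myeloid cells, of which only 3.77% and 0% of the 31-base words are found in no other gene. Cd300ld5 lay at 9.8, 8.69, 9.72, 10.4 and 1.24 CPM in colonic libraries, so that library 5 was at the small intestinal level of 0 to 4.83 CPM. Igkv4-53, a kappa light chain variable gene with 40.1% of words of its own, lay at 4.76, 72, 14.4, 99.6 and 59.5 CPM in colonic libraries against 3.00 to 22.1 CPM (-2.67 ± 0.53, adjusted p = 0.00091), and lost its call without number 2 (adjusted p = 0.061) and in limma-voom (0.0817).

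Hox genes encode transcription factors that mark position along the body axis. Of 25 tested Hox genes 5, all in the Hoxa and Hoxc clusters, were lower and 0 higher. A log2 fold change above 0 was found for 12 of 25 (median -0.02), against 8272 of all 18077 genes tested. Hoxc10, Hoxa10 and Hoxc9 passed in all 3 nodes. Hoxc10 had 11 estimated counts in 15 small intestinal libraries, with 7 libraries at 0, and 101 in the 5 colonic libraries. The colonic to small intestinal ratio of CPM from these sums was 28.5 (95% interval 15.3 to 59, exact binomial), and the colonic libraries lay at 2.45, 3.31, 3.7, 2.13 and 3.73 CPM. For Hoxa10 the sums were 29 and 85 counts and the ratio was 9.11 (5.91 to 14.4). Hoxc9 averaged 3.35 ± 1.81 CPM in colonic nodes and 0.436 ± 0.0885, 1.01 ± 0.111 and 1.36 ± 0.502 CPM in duodenal, jejunal and ileal nodes (-1.97 ± 0.29, adjusted p = 1.2e-05). The groups overlapped for Hoxc9 and did not for Hoxc10, Hoxa10 and Hoxa9.

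Hoxa9 was lower in the mean contrast (-2.26 ± 0.38, adjusted p = 0.0001) and in duodenal and ileal but not jejunal nodes (adjusted p = 0.1). Hoxc6 was lower in the mean contrast (-0.66 ± 0.17, adjusted p = 0.018) and among single nodes in duodenal nodes alone (-1.17 ± 0.23, adjusted p = 0.0012). The 5 tested Hoxd genes had adjusted p-values of 0.69 or more in the mean contrast (edgeR). Hoxd9 had its highest mean in ileal nodes at 20.5 ± 4.11 CPM, followed by colonic nodes at 14 ± 3.04, jejunal nodes at 12.7 ± 2.58 and duodenal nodes at 8.71 ± 2.63 CPM, and its mean contrast was -0.09 ± 0.14, adjusted p = 0.86. Hoxd10 gave -0.02 ± 0.23, adjusted p = 0.99. Without duodenal libraries 2 and 5 the Hox list had 4 lower genes and 1 higher. Among 15 other tested positional transcription factors 1 was lower, Tbx18 (-1.74 ± 0.48, adjusted p = 0.024), at 0 to 1.32 CPM against 1.23 to 2.18 CPM. Its call was lost without any 1 of the numbers 3, 4 and 5 and without colonic library 4 or 5 (adjusted p from 0.0669 to 0.114).

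**Figure D3:**
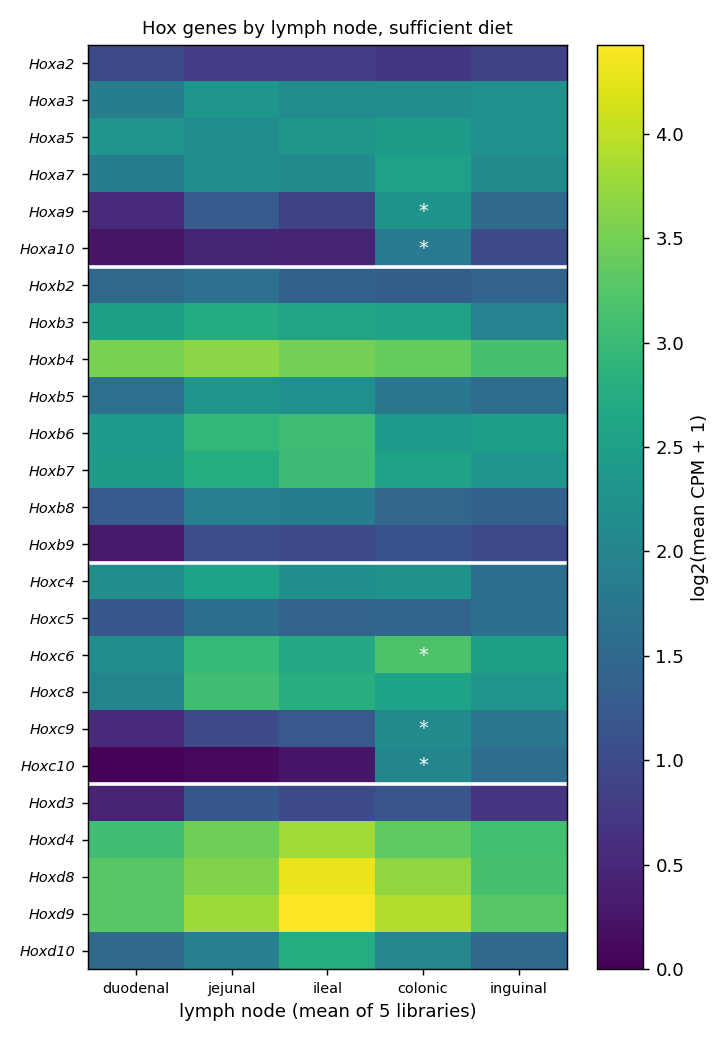
Mean CPM of 5 libraries, as log2(CPM + 1) on the colour scale, of the 25 tested Hox genes (rows, by cluster) in each sufficient-diet node (columns). Asterisks mark the 5 genes called between small intestinal and colonic nodes, all in the Hoxa and Hoxc clusters.

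Of 16 tested B cell genes 7 were lower and 0 higher, with a median log2 fold change of -0.29. A log2 fold change above 0 was found for 0 of 16, against 8272 of all 18077 genes tested. The called genes with the largest differences were Cd79a, a chain of the antigen receptor complex (-0.43 ± 0.11, adjusted p = 0.011), and the Fc receptor-like gene Fcrla (-0.37 ± 0.07, adjusted p = 0.0006). In single nodes 4 were lower in duodenal, 8 in jejunal and 0 in ileal nodes, and without duodenal libraries 2 and 5 the mean contrast had 5 lower genes. The summed level of the 16 genes was 4764 to 7083 CPM in small intestinal and 5840 to 8269 CPM in colonic libraries, with overlap. Cd79a lost its call without number 2 (adjusted p = 0.28), number 3 (0.0727) or colonic library 2 (0.14), and in the fit with no sex term (0.0786). Of 8 tested heavy chain constant genes 2 were lower, Ighg1 (-2.53 ± 0.71, adjusted p = 0.03) and Ighe (-2.66 ± 0.78, adjusted p = 0.038), and both varied widely. Limma-voom called 0 of the 8 and DESeq2 2, 5 had an unadjusted p under 0.05 in edgeR, and Ighe lost its call under 21 and Ighg1 under 10 of the alternatives run. Without colonic library 5 the adjusted p was 0.435 for Ighe and 0.24 for Ighg1. Ighg1 ranged from 1.25 to 817 CPM in small intestinal and from 71.4 to 1423 CPM in colonic libraries, and Igha gave 0.05 ± 0.34, adjusted p = 0.98.

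Of 12 tested genes of type 1 dendritic cells 2 were higher, Clec9a, a receptor for dead cells (0.73 ± 0.14, adjusted p = 0.00042), and the adhesion molecule Cadm1 (0.53 ± 0.14, adjusted p = 0.014). Cadm1 lost its call without number 3 (adjusted p = 0.0702), 4 (0.104) or 5 (0.0848) and without colonic library 4 (0.0553) or 5 (0.0695). Of 15 genes of migratory dendritic cells 3 were higher, the chemokine Ccl22 (0.75 ± 0.13, adjusted p = 8.3e-05), Apol7c (0.82 ± 0.13, adjusted p = 5.3e-05) and the protease inhibitor Serpinb6b (0.58 ± 0.08, adjusted p = 5.8e-06). Ccl22 and Apol7c did not pass in ileal nodes alone (adjusted p = 0.23 and 0.19). Of the 15 genes 5 were higher in duodenal and 3 in jejunal nodes, whereas in ileal nodes 1 was higher and 2 were lower. By the test among the small intestinal nodes 8 of the 15 varied. For Apol7c 61.9% of the 31-base words are its own. Of 13 genes of type 2 dendritic cells 1 was higher, Esam, which is also on the capillary list, and 2 were lower, Clec10a and the lectin Cd209d (-0.84 ± 0.16, adjusted p = 0.00062). Among 18 genes of the naive T cell programme 1 was higher and 1, the chromatin organiser Satb1, was lower, and Satb1 lost its call under 30 of the alternatives run. In ileal nodes alone 1 of the 18 was higher and 5 lower. Among 15 cytotoxic genes 2 were higher, the granzyme Gzma (0.93 ± 0.26, adjusted p = 0.028) and the chemokine receptor Cx3cr1 (0.40 ± 0.09, adjusted p = 0.006). Gzma lost its call without number 2 (adjusted p = 0.17), 3 (0.0668), 4 (0.224) or 5 (0.0609) and without colonic library 2 (0.113), 3 (0.0946) or 4 (0.151). Ccr9, the small intestinal homing receptor, was at 32.2 to 50.5 against 29.7 to 40.9 CPM and did not pass (0.35 ± 0.12, adjusted p = 0.1).

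Stromal lists moved in both directions. Of 13 tested T zone genes 4 were higher and 0 lower, including the cytokines Tnfsf11 (0.59 ± 0.13, adjusted p = 0.0032), which was called in all 3 nodes, Il33 (0.56 ± 0.11, adjusted p = 0.0013) and Il7 (0.57 ± 0.14, adjusted p = 0.0071). Il7 lost its call without number 4 (adjusted p = 0.0667) or colonic library 4 (0.0654). In ileal nodes alone 2 of the 13 T zone genes were higher and 1 lower. The stromal chemokines Ccl19 (0.12) and Ccl21a (0.10) did not pass, and 41.2% and 19.4% of their 31-base words are their own. Of 13 follicular and marginal genes 4 were higher, among them the chaperone Clu (0.41 ± 0.07, adjusted p = 6.8e-05), and 2 lower, the B cell chemokine Cxcl13 (-0.51 ± 0.11, adjusted p = 0.0031) and the inhibitory Fc receptor Fcgr2b (-0.44 ± 0.08, adjusted p = 0.00059). Cxcl13 lost its call without number 1 (adjusted p = 0.11) or number 3 (0.0648). Of 10 pericyte genes 1 was lower, Rgs5 (-0.51 ± 0.11, adjusted p = 0.002), which was at 57.6 ± 9.06 CPM in duodenal and 26 ± 3.68 CPM in ileal nodes. A log2 fold change above 0 was found for 0 of the 10 (median -0.39), against 8272 of all 18077 genes tested. On the deficient diet the median of the pericyte list was 0.02. Of 11 lists with no called gene in the mean contrast, 4 covered cell cycle, immediate early, heat shock and glucocorticoid-induced genes. In the mean contrast, over all 11 lists and 156 genes, edgeR and limma-voom called none and DESeq2 called 1, and 20 had an unadjusted p under 0.05 in edgeR. Single nodes did give calls in these lists: 4 of 13 germinal centre genes were lower in duodenal nodes, and in ileal nodes 2 of 18 immediate early genes were higher and 1 lower.

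Genes of tissues around the nodes were measured in the same libraries. Of 11 tested mesothelial genes 4 were lower, Slpi (-2.41 ± 0.39, adjusted p = 5.2e-05), Upk3b (-2.23 ± 0.42, adjusted p = 0.00039), Lrrn4 (-1.91 ± 0.35, adjusted p = 0.00029) and Upk1b (-2.59 ± 0.48, adjusted p = 0.00041). In single nodes 4 of the 11 were lower in duodenal and 1 in jejunal nodes. In ileal nodes 0 were lower and 1 was higher, and 0 were lower in all 3 nodes. The summed level of the list was 27.1 to 83.2 CPM in small intestinal and 64.2 to 198 CPM in colonic libraries. It was 45.7 to 83.2 CPM in ileal libraries. All 4 called genes were above 0 in every colonic library. Inguinal libraries were at 12.1 to 54 CPM. Adipose genes gave no call among 18 in the mean contrast in edgeR, limma-voom or DESeq2 (7 with an unadjusted p under 0.05 in edgeR), but 10 of the 18 were lower in duodenal nodes and 15 varied among the small intestinal nodes. Their sum was 582 to 8553 CPM in small intestinal and 2437 to 6322 CPM in colonic libraries. Lpl, the lipoprotein lipase of the lipid list, was lower in duodenal nodes (-1.94 ± 0.41, adjusted p = 0.0025) and not called in jejunal nodes (-0.03 ± 0.39, adjusted p = 0.99). Lpl also passed in the mean contrast and lost that call under 25 of the alternatives run. In that contrast 2 of the 21 tested lipid genes were higher and 2 lower. The pancreatic list had a median log2 fold change of 3.54 and 1 called gene of 23 in the mean contrast, the amylase Amy2a1. Amy2a1 had no call without duodenal libraries 2 and 5, and only 3.6% of its 31-base words are its own. DESeq2 called 17 of the 23 and limma-voom 0, and in edgeR all 23 were higher in duodenal nodes and varied among the small intestinal nodes. Without those 2 libraries 35 of 45 lists had the same counts and no count moved by more than 2. With 95 pancreatic genes taken out before scaling, an alternative chosen after seeing the data, 704 genes passed in the mean contrast, 699 of them among the 707, and 96 in all 3 nodes, 92 of them among the 93. The part of mesothelium and fat in the genes above was not tested.

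**Figure D4:**
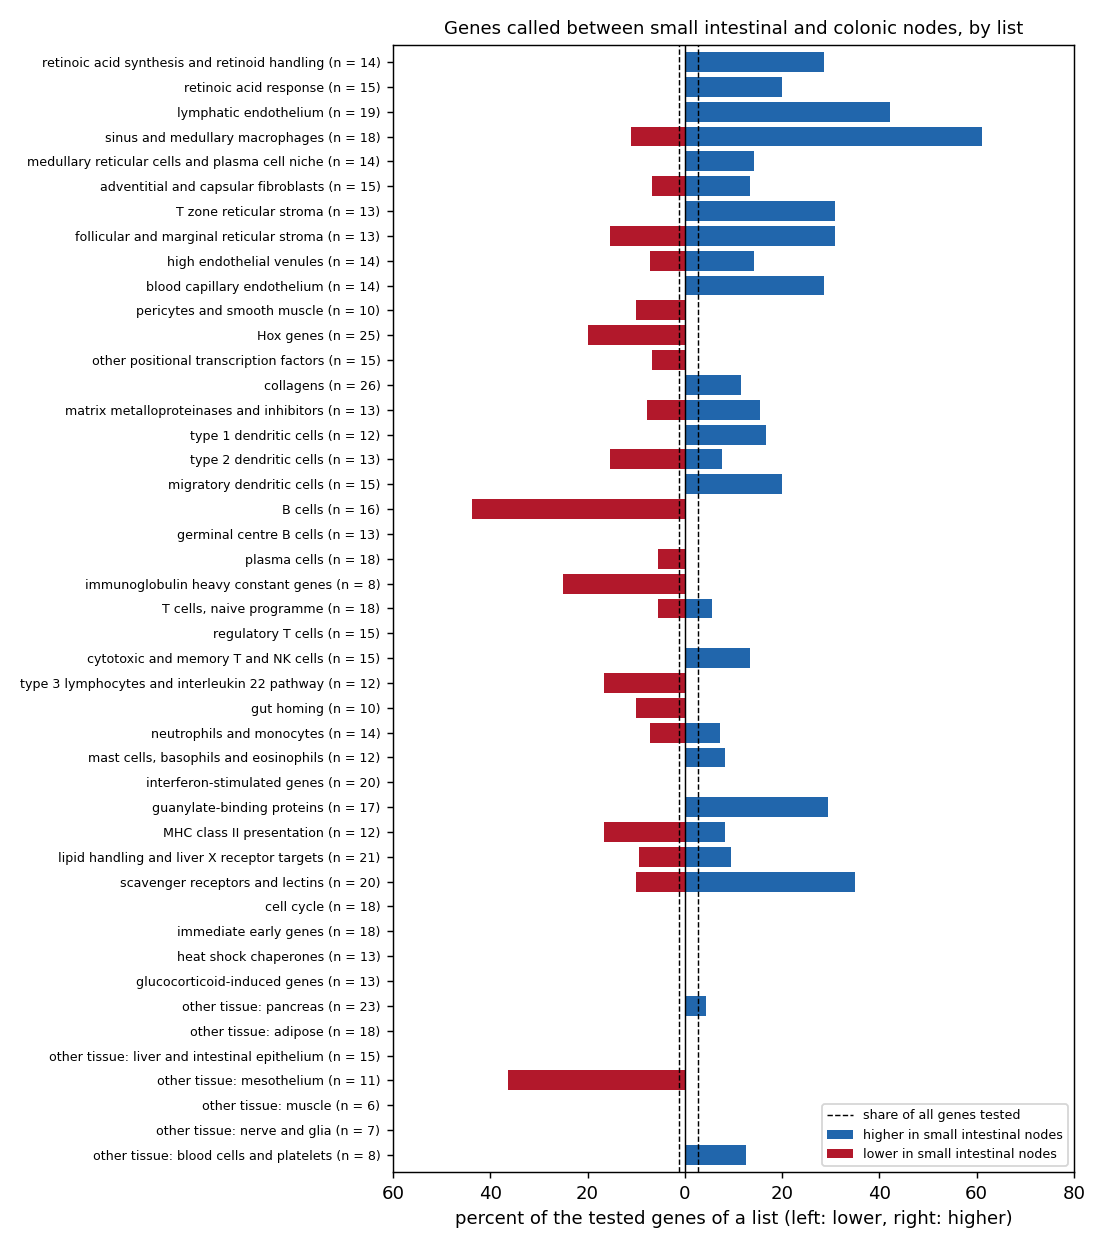
Percent of the tested genes of each list (y axis, with its number of tested genes) that were called higher (right) or lower (left) in small intestinal than in colonic nodes (x axis). Dashed lines give the share over all genes tested, 2.70% higher and 1.21% lower, and the macrophage list has the longest bar to the right with 11 of 18 genes.

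The deficient libraries were not contrasted in choosing the 93 genes. They entered that fit through scaling, the filter, the shared spread and the sex term. A fit of the 25 sufficient libraries alone called 98 genes in all 3 nodes, of which 76 were among the 93. The same contrast in the deficient libraries gave 325 called genes (1.80%), 234 higher (1.29%) and 91 lower (0.503%). Of the 73 genes, 72 had the same sign there and 30 were called higher, with a median log2 fold change of 0.50. Of the 20 lower genes, 17 had the same sign and 12 were called lower, with a median of -1.02. None of the 93 was called the other way by edgeR. Col6a6 (2.13 ± 0.22 sufficient, 2.01 ± 0.21 deficient), C6 (2.00 ± 0.33 and 2.04 ± 0.36), Cyp1b1 (1.05 ± 0.11 and 1.03 ± 0.11), Mmp3 (-2.05 ± 0.19 and -1.90 ± 0.19) and Hoxc10 (-4.92 ± 0.37 and -4.94 ± 0.38) had close values on both diets. Aldh1a2 was at 0.865 to 5.51 CPM in deficient small intestinal and 1.07 to 4.18 CPM in deficient colonic libraries (0.14 ± 0.30, adjusted p = 0.95). The difference of its log2 fold changes between diets was 1.29 ± 0.38 and did not pass (adjusted p = 0.34).

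The difference between diets was itself tested for all genes, and 15 passed (0.0830%), each with a lower value on the sufficient than on the deficient diet. At an unadjusted p under 0.05 there were 1126. Of the 93 genes 3 passed: Rufy4 (-1.46 ± 0.16 sufficient and -0.06 ± 0.16 deficient, adjusted p of the difference = 0.0011), Asprv1 (-1.18 ± 0.19 and 0.57 ± 0.19, 0.00068) and Gpr15lg (-1.24 ± 0.23 and 0.69 ± 0.21, 0.00078). For Gpr15lg the sufficient means were 1.96 ± 0.725 CPM in small intestinal and 4.66 ± 0.922 CPM in colonic nodes, and the deficient means were 12.7 ± 4.4 and 7.67 ± 2.31 CPM. Diet cannot be told apart from the dams, and no deficient library is male. In 10 of the 25 deficient libraries the transcript Gm19220 took 1.03% to 1.7% of counts, against 5.37% to 9.83% in all others. Among gut-draining nodes these were colonic libraries 2, 3 and 5, duodenal library 3, jejunal library 3, and ileal libraries 2 and 3. The low share was thus uneven over the small intestinal and colonic sides, and cannot be fully told apart from node in the deficient contrast. Without the 10 libraries the deficient contrast called 84 genes. The difference between diets then called 5 genes, which were not all lower on the sufficient diet. Without deficient number 1, 2 or 5 the deficient contrast called 186, 172 or 193 genes, and the difference between diets called 8 without deficient number 1 or 2 and 7 without sufficient number 5.

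**Figure D5:**
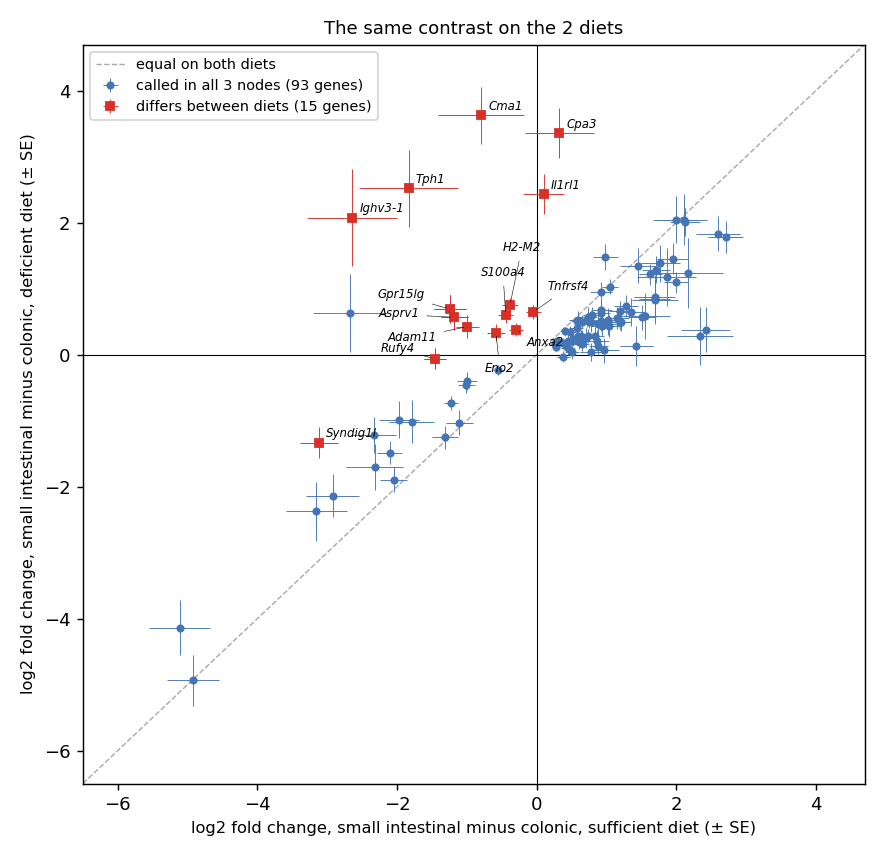
Log2 fold change of small intestinal against colonic nodes on the sufficient diet (x axis, ± SE) and on the deficient diet (y axis, ± SE) for the 93 genes called in all 3 nodes (circles) and the 15 genes whose difference between diets passed (squares, 3 of them also among the 93). The dashed line marks equal values, and 72 of the 73 higher genes lie above 0 on the y axis.

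Within the sufficient diet the contrast was also taken in each sex. All 73 higher and all 20 lower genes had the same sign in females (6 small intestinal and 2 colonic libraries) and in males (9 and 3), as estimated in the libraries that chose them. Gbp2b gave 2.27 in females and 3.05 in males, Aldh1a2 1.48 and 1.42, and Il22ra2 -1.9 and -2.25. Of 16879 genes tested for a difference between sexes 1 passed (0.00592%), the mitochondrial gene mt-Nd3, of which 1.89% of words are its own, and 1102 had an unadjusted p under 0.05. Sex cannot be told apart from other differences between the animals numbered 1 and 2 and those numbered 3 to 5.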

How the data were processed

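RNA from whole lymph nodes was extracted with TRIzol and sequenced after poly(A) selection, per the labels' protocols. The authors deposited 1 table of estimated counts per gene for all 50 libraries. Per the submitters' processing notes, the builds mm10 and GRCm39 and the tools edgeR, limma and kallisto were used, with neither version nor role stated there. The deposited estimated counts were rounded to whole numbers. The 379 rows without a gene name, with 0.379% of counts, were kept under their Ensembl identifiers. edgeR 4.0.16 in R 4.3.3 scaled libraries by TMM and kept 18077 genes (filterByExpr). Its quasi-likelihood test was fitted to all 50 libraries, with 10 groups of node and diet and a term for sex. Benjamini-Hochberg adjusted p-values were taken over all genes tested, with a threshold of 0.05. A sufficient-diet fit of 25 libraries, with 16879 genes, tested sex. Fold changes are log2, and the value after ± is the standard error, approximated from the fold change and the F statistic. After a mean CPM, it is the SD over libraries. Values after a gene in parentheses are the log2 fold change, its SE and the adjusted p from edgeR.

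The genes named were, per direction, the 15 with the largest fold change among those called in all 3 nodes, with a mean of at least 5 CPM and no predicted-gene symbol, in each list up to 4 called genes, taken by the lowest adjusted p, a set of fixed genes, and up to 6 per direction for the tests of diet, sex and variation along the intestine. Asah1, C1qa, Casp1, Cdh3, Ctsl, Cyp1b1, Glp2r, Hoxc6, Hoxd10, Hpgd, Nlrp1a, Nlrp1b, Pla2g4a, Ptgs1, Rspo3, Scarb2, Sfrp1 and Slc40a1 were named outside this rule, after their values were seen. The members and the 45 lists were chosen with earlier results of these data known. The share of 31-base words found in no other gene was computed from GENCODE M21 transcripts (GRCm38), and promoter windows came from RefSeq (GRCm38.p6). Alternatives covered scaling, filters, limma-voom (limma 3.58.1), DESeq2 1.42.0, sex, the replicate block and left-out libraries, and the fit was tested on simulated data. Libraries of 5335369 to 8487925 counts limit the precision of genes near 1 CPM to a few counts per library.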

Additional observations from a re-analysis of the deposited data

Results flagged for a closer look

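Of 244 groups of 5 libraries checked, 21 held a library that stood apart from the other 4 by Dixon's criterion, and chance gives about 1 in 20. Among the genes higher in small intestinal nodes, C6 lay at 14.6 CPM in colonic library 5, Clec4g at 20.1 CPM in colonic library 2, and Cdkn2a at 4.09 CPM in duodenal library 4 and 5.21 CPM in ileal library 1. Among the lower genes, Bpifb3 lay at 1.11 CPM in jejunal library 2, Igkv4-53 at 22.1 CPM in duodenal library 3, Cd300ld5 at 1.24 CPM in colonic library 5 and Il22ra2 at 19.8 CPM in duodenal library 4. Nxph1 lay at 4.56 CPM and Hoxc10 at 0.138 CPM in duodenal library 1, and Hoxd9 at 19.3 CPM in colonic library 5. The 5 duodenal libraries together held 1 estimated count of Hoxc10, so the criterion is of no use for it there. Retinoid genes stood apart in libraries numbered 5, with Cyp26b1 at 24.2 CPM in the jejunal and 13 CPM in the ileal library, and Dhrs3 at 55 CPM in the duodenal library.

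The summed pancreatic genes stood apart in 3 libraries numbered 5, with 463250 CPM in the duodenal, 4115 CPM in the ileal and 3494 CPM in the colonic library. Summed liver and intestinal epithelial genes stood apart in jejunal library 5 at 106.2 CPM, muscle genes in duodenal library 4 at 73.83 CPM and colonic library 2 at 54.84 CPM, and blood genes in ileal library 1 at 137.5 CPM.

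The small intestinal minus colonic difference itself differed between diets for 15 genes in edgeR's test of that difference, and the values that follow are sufficient minus deficient on the log2 scale. Genes known from mast cells gave -4.42 for the protease Cma1, -4.35 for Tph1, which starts serotonin synthesis, -3.03 for the carboxypeptidase Cpa3 and -2.33 for Il1rl1, the interleukin 33 receptor. The 3 genes also called in all 3 small intestinal nodes were Gpr15lg at -1.93, Asprv1 at -1.75 and Rufy4 at -1.40. The others were Ighv3-1 at -4.72, Syndig1l at -1.78, Adam11 at -1.42, H2-M2 at -1.13, S100a4 at -1.03, Eno2 at -0.92, Tnfrsf4 at -0.69 and Anxa2 at -0.68. Between sexes, mt-Nd3 differed by 2.01 (male minus female).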

How the results depend on the processing

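Of the 108 called genes that the naming rule chose, 0 reversed under the alternatives run, but many lost their call. The loss was 78 in female mice alone and 43 of 107 in male mice alone. It was 28 without number 3, 22 without number 4, and 17 each without colonic library 1, 3 or 4. Limma-voom lost 12 and DESeq2 lost 1. Leaving out replicates one at a time, the counts ranged from 395 to 750 genes (small intestinal against colonic), 43 to 106 (all 3 nodes), 301 to 588 (duodenal), 287 to 614 (jejunal), 532 to 955 (ileal), 726 to 1429 (among small intestinal nodes), 172 to 359 (deficient diet), 7 to 19 (difference between diets) and 0 to 13 (difference between sexes). In female mice alone the first 6 counts were 79 (48.1% higher, against 69%), 5, 48, 23, 89 and 105, with 1 for the diets, and in male mice alone 312 (81.7% higher), 28, 67, 260, 472 and 210. These fits hold fewer libraries. Without duodenal libraries 2 and 5, chosen after seeing the data, 257 genes were called for duodenal nodes and 884 among small intestinal nodes. Limma-voom called 347 genes for duodenal nodes and 8 between diets. DESeq2 called 489 on the deficient diet and 37 between diets (18.9% higher). Without the 10 deficient libraries low in Gm19220, also chosen after seeing the data, the deficient contrast called 84 genes (53.6% higher) and the diets 5 (60% higher). Between sexes, 384 genes passed with no filter on low counts, 2 in limma-voom and 8 in DESeq2. The causes were not tested. With the replicate block, small intestinal against colonic nodes called 918 genes, of which 694 were among the 707, the all-3 count was 126, of which 90 were among the 93, and the sexes gave 2. The labels do not say that a number marks the same mouse, and 21 of 30 pairs of same-numbered libraries had deviations correlated above 0.1 (range -0.141 to 0.535), including all 6 pairs of number 1 and of number 5. Since not every pair was above 0.1 the block was kept as an alternative, although 14 of 20 libraries correlated best with their own number, a hint from the data. Genes with few counts, such as Bpifb3, Hoxc10 and Hoxa10, are limited by depth.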
